A study of Mus musculus with 12 samples.

Results

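The cerebellum of SCA1 KI mice was compared with that of WT littermates at 12 weeks of age, as the 6 cerebellum libraries among the 12 bulk RNA-seq libraries of the study. The libraries were chosen by the region and genotype in their labels, with 3 from SCA1 KI and 3 from WT mice. SCA1 KI mice carry an Atxn1 allele with 154 CAG-encoded glutamines and another with 2 (Atxn1 154Q/2Q), the expanded allele stands under the gene's own regulatory sequence, and both groups were on the C57BL/6J strain without treatment. The other 6 libraries are of cortex from the same 2 genotypes and served here as a reference for where a gene is abundant. The paper describes the cerebellar data as a set its laboratory had published before and analysed again beside the cortex. Region and dataset therefore cannot be told apart in any comparison of cerebellum with cortex. The labels give male mice, whereas the methods give males and females combined. The deposited columns carry library numbers of their own, 1, 3 and 5 for SCA1 KI and 2, 4 and 6 for WT, and nothing in them pairs 1 genotype with the other. Beyond the genotype nothing says which libraries shared a litter, so p-values measure the spread between these libraries.

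Spinocerebellar ataxia type 1 is caused by an expanded CAG repeat in the gene for ataxin-1, a protein that binds the transcriptional repressor capicua in the nucleus. Purkinje cells, the only output neurons of the cerebellar cortex, are among the neurons most affected. They read the input of the far more numerous granule cells through AMPA receptors and through metabotropic receptors whose signal runs by way of Homer3, Gq, phospholipase C and IP3 receptors. The whole cerebellum also holds molecular layer interneurons, Bergmann glia, oligodendrocytes and the deep nuclei, and it borders on the midbrain (inferior colliculus) in front and the brainstem below.

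The mouse reference sequence around the CAG codons that the knock-in replaces is printed here, since the repeat is what sets the groups apart. It lies in the coding part of an exon at chr13:45567773-45567868 (GRCm38, minus strand), and the capitals mark the 2 glutamine codons, residues 199 and 200 of a reading frame of 791 residues, at bases 45567818 to 45567823.
Atxn1: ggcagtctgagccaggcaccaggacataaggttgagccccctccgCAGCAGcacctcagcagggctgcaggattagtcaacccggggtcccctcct

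Reads assigned to genes numbered 36222298 to 51311309 in the SCA1 KI and 29520855 to 38335590 in the WT libraries, with 2.44% to 3.04% of them on the top 10 genes of each library. Replicates differed beyond counting noise, with a chi-square per gene of 7.54 to 14.5 between SCA1 KI libraries and of 9.70 to 27.2 between WT libraries, where WT library 2 stood apart from the other 2 (27.2 and 21.5). The cerebellum label held up against the markers, with Gabra6 at 20711 to 32164 normalized counts in the 6 libraries and at a mean of 14.4 in the WT cortex. Values below are normalized counts, that is, reads scaled by the depth factor of each library. LFC is the difference between the group means of log2(normalized count + 1), SCA1 KI minus WT, and a DEG had a Benjamini-Hochberg adjusted p under 0.05 from limma, fitted to all 12 libraries, with an absolute LFC over 0.25. For genes of few counts this LFC is smaller than the true change in level.

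Atxn1 itself differed little between the genotypes. It had 3812, 3717 and 4138 normalized counts in SCA1 KI libraries 1, 3 and 5, against 3737, 3628 and 3671 in WT libraries 2, 4 and 6. The groups overlapped, and the LFC was 0.08 ± 0.13 (SE, limma adjusted p = 0.837). A read count cannot show how long the repeat is, so Atxn1 does not check the genotype labels, and exons of Gmpr overlap the gene.

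Of 15369 genes tested, 141 were higher (0.917%) and 683 lower (4.44%) in the SCA1 KI cerebellum. The genotypes did not overlap in 141 of the higher and 682 of the lower DEGs. Among all tested genes, every SCA1 KI library lay above every WT library in 14.3% and below in 17.5%. The lower DEGs were also the larger changes, with 303 of them past an absolute LFC of 1, against 9 of the higher ones, and the median absolute LFC was 0.86 for the lower and 0.42 for the higher DEGs. Lower genes made up 82.9% of the DEGs. This share was 71.4% with TMM scaling of the libraries, 65.7% once values had been corrected for the length and GC content of transcripts, and 73.0% with the midbrain covariate described further on. At an unadjusted p under 0.05, 922 genes were higher and 1742 lower. A fit of the 6 cerebellum libraries alone gave 220 higher (1.43%) and 618 lower genes (4.02%), of which 119 and 476 were also DEGs of the fit with all libraries. Fits that left out a library kept both regions unless stated. The counts rested on single libraries, with 43 higher and 356 lower DEGs without SCA1 KI library 1 and 50 and 404 without SCA1 KI library 3. Leaving out SCA1 KI library 5 gave 55 higher DEGs, WT library 2 gave 78 and WT library 6 gave 81.

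Markers of the midbrain, which borders on the cerebellum, were lower in SCA1 KI. The midbrain list holds 14 genes, of which 12 are in the table and 11 were tested, and 6 of the 11 were lower in SCA1 KI with a list median LFC of −3.38, against −0.005 over all tested genes. Tfap2d (chromosome 1, 19103022 to 19166346, GRCm38), a transcription factor of the dorsal midbrain, had 3.37, 0.687 and 1.94 normalized counts in the SCA1 KI libraries and 214, 124.6 and 181 in WT libraries 2, 4 and 6. The gene was thus nearly absent from 1 genotype and present in the other (LFC −5.93 ± 0.40 SE, limma adjusted p = 6.52e-06). Pou4f1, a POU-domain factor of the tectum and other sensory centres, had 2.53, 6.87 and 10.6 normalized counts in the SCA1 KI and 139, 46.4 and 83.9 in the WT libraries. Gata3, a factor of GABAergic midbrain neurons, had 2.53, 2.75 and 12.6 against 157, 48.9 and 95.5, and Sox14, of the same kind of neuron, had 5.06, 4.12 and 2.90 against 79.4, 31.8 and 51.3. None of these genes overlapped between the genotypes. Pou4f2 (LFC −4.88) and Tal1 (−1.79) were the remaining DEGs of the list, and Pax7, with 1.69 to 2.90 normalized counts in SCA1 KI and 19.5 to 116 in WT, missed the threshold (LFC −3.94, limma adjusted p = 0.0553). Most of these markers have few reads, and at a minimum mean of 100 normalized counts 5 of them were tested, with 1 lower and a list median of −0.65. The count of 6 was 3 without SCA1 KI library 1, without SCA1 KI library 3, without WT library 2 or without WT library 6.

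Of these markers, Tfap2d, Pou4f1, Gata3, Sox14 and Pax7 each ranked WT library 2 first, then 6, then 4. The summed level of the midbrain list followed the same order, with 2165, 1696 and 1435 normalized counts in WT libraries 2, 6 and 4, against 706, 688 and 743 in SCA1 KI libraries 1, 3 and 5. A background remained in SCA1 KI, carried mainly by Gata2, En1, Th and Ddc, none of which was a DEG. In the thalamus list 5 of 8 tested genes were lower, with a median LFC of −1.23. Tcf7l2 (chromosome 19, 55741820 to 55933654), a Wnt-pathway transcription factor that marks the thalamus and adjoining midbrain, had 223, 210.1 and 249 normalized counts in SCA1 KI and 2404, 1480 and 2051 in WT libraries 2, 4 and 6 (LFC −3.09 ± 0.29 SE, limma adjusted p = 5.19e-05). Lhx9 had 32.3 to 46.5 against 418 to 727 (LFC −3.76), and Shox2 had 0 to 9.68 against 119.7 to 209.99 (LFC −5.46). Slc17a6, the vesicular glutamate transporter of subcortical excitatory neurons, had 982, 1117 and 1309.9 against 6803, 2878 and 3911 (LFC −1.91). Slc17a6, Lhx9 and Meis2 were the 3 DEGs among the 4 genes listed for the deep cerebellar nuclei, and 2 of them, Slc17a6 and Lhx9, are on the thalamus list as well, so the nuclei cannot be told apart from that tissue here. Spp1, the remaining gene of that list, had 1088 to 1318 normalized counts in SCA1 KI and 1175 to 2492 in WT, which overlapped. The caudal brainstem list (Hox genes, cranial motor and monoamine neurons) summed to 1468 in WT library 2, 303 in WT library 4 and 118 in WT library 6, and to 82.6, 92.7 and 278 in the SCA1 KI libraries, and 1 of its 11 tested genes, Prph, was lower, a call that, among the fits that left out 1 library, was made only without WT library 4.

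**Figure D1:**
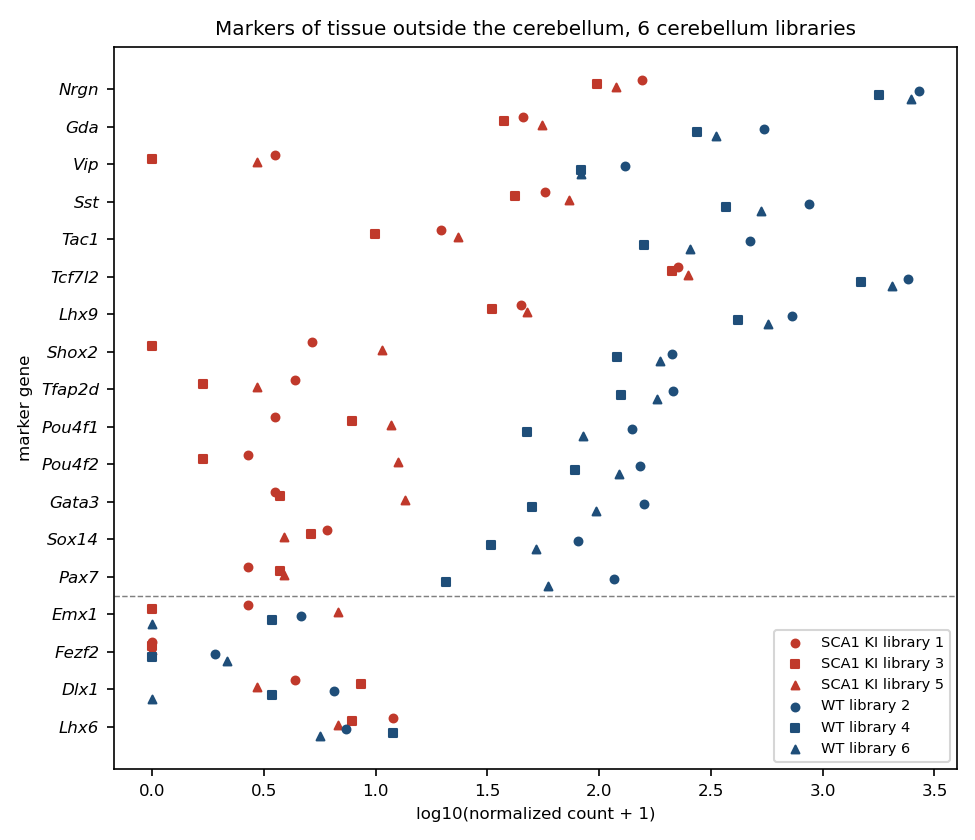
Normalized counts (log10 of the value + 1, horizontal axis) of markers of tissue outside the cerebellum in each of the 6 cerebellum libraries, red for SCA1 KI and blue for WT, with the shape giving the library. Above the dashed line the red and blue points lie apart (Tfap2d 0.687 to 3.37 in SCA1 KI and 124.6 to 214 in WT), and the forebrain factors below it overlap at low counts in both genotypes (Emx1 0 to 5.81, Lhx6 4.66 to 11.0).

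Many genes that are abundant in forebrain neurons were lower too. Nrgn, the calmodulin-binding neurogranin, was the DEG with the smallest p, at 155, 96.8 and 118 normalized counts in the SCA1 KI and 2687, 1777 and 2480 in the WT libraries. Vip, a neuropeptide, had 2.53, 0 and 1.94 against 129.6, 81.8 and 81.5, and was at least 39.1-fold lower. Sst, the neuropeptide somatostatin, had 56.4, 41.2 and 72.6 against 864, 368 and 528 (LFC −3.29). In each of these the SCA1 KI libraries lay far under the lowest WT library, and Nrgn, Sst, Gda and Ddn were again highest in WT library 2. Gda, a guanine deaminase, had an LFC of −3.01 ± 0.20 (SE, limma adjusted p = 6.52e-06), and Ddn, the dendritic protein dendrin, one of −3.29 ± 0.21 (limma adjusted p = 5.02e-06), though exons of B130046B21Rik overlap Ddn. Crhbp, which binds corticotropin-releasing hormone, was at least 17.8-fold lower, and the Ras regulator Rasal1 (LFC −1.49) and the zinc finger gene Zfp831 (LFC −3.30) complete the 8 lower DEGs with the smallest p. With the midbrain covariate Nrgn stayed lower (LFC −3.42, limma adjusted p = 0.0186). Vip, Gda, Ddn, Crhbp, Rasal1 and Zfp831 were no longer called (limma adjusted p = 0.121 for Ddn and 0.101 for Gda). All of these kept a negative LFC, at −4.32 for Vip, −2.86 for Crhbp, −2.44 for Zfp831, −2.15 for Ddn and −1.33 for Rasal1. The LFC of Gda moved most. The SE of each was larger than in the main fit, from 0.372 to 1.24 for Vip and from 0.104 to 0.298 for Rasal1. A lost call here thus does not show that the change was gone.

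Emx1 and Fezf2 of the cortical excitatory list and Dlx5 of the forebrain interneuron list had few or no counts in all 6 cerebellum libraries. Emx1, which specifies the forebrain, had 0 to 5.81 normalized counts over the 6 cerebellum libraries, against a mean of 935 in the WT cortex. Fezf2 had 0 to 1.16 and Dlx5 was at 0 in all 6, against 1012 and 146 in the WT cortex. Of the 16 genes of the cortical excitatory list 6 were lower (Nrgn, Ddn, Camkv, Icam5, Kcnv1 and Gda) and 1, Tbr1, was higher (LFC 0.58). Among the fits that left out 1 library, Tbr1 was called only without SCA1 KI library 3 and without WT library 2. Among the 14 of the forebrain interneuron list, 4 were lower (Vip, Sst, Npy and Crhbp) and 1 was higher. Of 8 hippocampal genes Fibcd1 (LFC −3.33) and Pou3f1 (−1.15) were lower, of 10 striatal genes Tac1 (−4.02), and of 5 blood genes the 1 that could be tested was no DEG. Over all tested genes 4.44% were lower. Cortical RNA was estimated from each gene of the cortical excitatory list, as its level relative to its mean in the cortex libraries of the same genotype. The median of these ratios over the list came to 2.03% for WT library 2, 0.604% for WT library 4 and 0.966% for WT library 6. It was 0.395% to 0.589% for the SCA1 KI libraries. The members of the list did not give a common share. In the WT libraries Fezf2, at no more than 1.16 normalized counts against 1012 in the WT cortex, lay under each of these medians. The median is thus a summary of unlike ratios and not a measured amount of cortical tissue. Subtracting the median ratio of each library as its share of cortical RNA left 155 higher and 637 lower DEGs. In the cortical excitatory list, from which the share was estimated, it left 3 lower genes in place of 6, with Ddn no longer among them, and moved the median LFC from −0.58 to 0.01, and the median of the striatal list turned from −0.19 to 0.04. The midbrain covariate left 1 lower gene in the cortical excitatory list, none in the forebrain interneuron and hippocampal lists, 2 in the thalamus list and 1 in that of the deep nuclei, and the brainstem list had 2 higher and no lower gene, with its median turned from −1.15 to 4.32.

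In the main comparison the excess of lower DEGs lay in genes that are more abundant in the cortex libraries than in the cerebellum. Among 7768 such genes 535 were lower and 54 higher. Among the 7601 genes no more abundant in cortex, 148 were lower (1.95%) and 87 higher (1.14%). This split was the other way round with the midbrain covariate, with 31 lower and 55 higher genes among those more abundant in cortex and 183 lower and 24 higher among the rest. The share called lower was 36.6% of the 418 genes with a log2 ratio of cortex to cerebellum over 3, 27.4% at 2 to 3, 12.1% at 1 to 2 and 1.38% at −1 to 0, and it was 5.91% among the 558 genes with a ratio up to −2. The share called higher stayed between 0.663% and 2.09% across these classes. The fit shares its error between the regions, and that error is wide for genes nearly absent from cortex. Among the 150 genes with a WT cortex mean under 5% of the WT cerebellum mean, 15 were lower and 1 higher in that fit, and 27 were lower and 5 higher with the cerebellum fitted on its own.

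**Figure D2:**
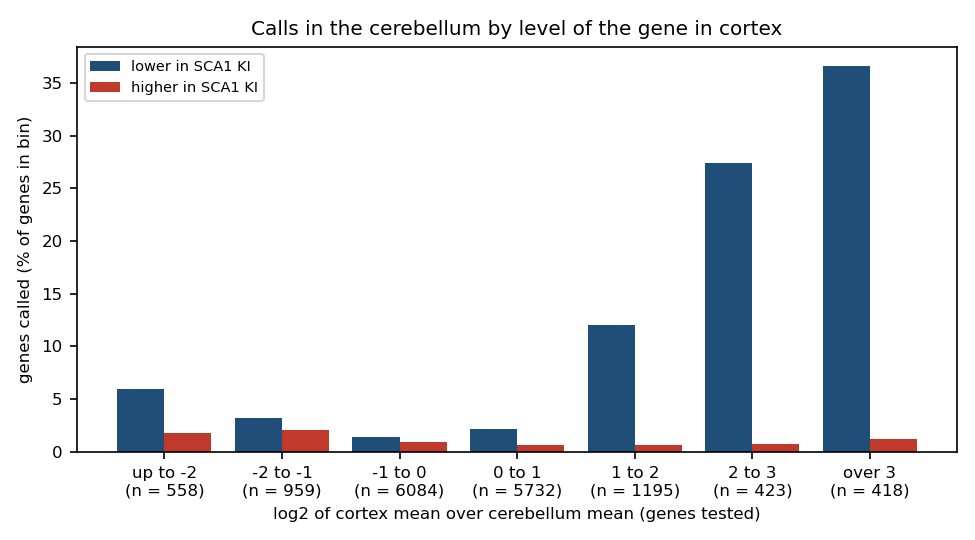
Share of tested genes called lower (blue) or higher (red) in the SCA1 KI cerebellum, in percent, by the log2 ratio of the mean normalized count in cortex to that in cerebellum, with the number of genes in each class. The blue bars rise from 1.38% at −1 to 0 to 36.6% over 3, with 5.91% in the class most particular to cerebellum.

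The order of the WT libraries differed among the lower DEGs, a pattern that was looked at after the values had been seen. The order 2, 6, 4 of the midbrain markers held in 65.3% of the lower DEGs (446 of 683), in 75.6% of those with an LFC under −1, in 14.9% of the higher DEGs and in 23.0% of all tested genes. It held in 73.6% of the lower DEGs more abundant in cortex (394 of 535) and in 35.1% of the 148 that were not. In 74 of those 148 WT library 2 was the lowest WT library, as it was in 41.8% of all tested genes. What part tissue from outside the cerebellum had in any single DEG was not tested. In a further alternative, also set up after the values had been seen, the summed midbrain list entered the fit of the cerebellum libraries as a covariate. It left 79 higher (0.514%) and 214 lower genes (1.39%), of which 11 and 65 were DEGs of the main comparison. The covariate does not overlap between the genotypes, so its slope is set within genotype and carried across the gap between them. It varied little in SCA1 KI libraries 1, 3 and 5 (706, 688 and 743) and more in WT libraries 2, 4 and 6 (2165, 1435 and 1696). The slope thus rests mainly on the WT libraries.

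**Figure D3:**
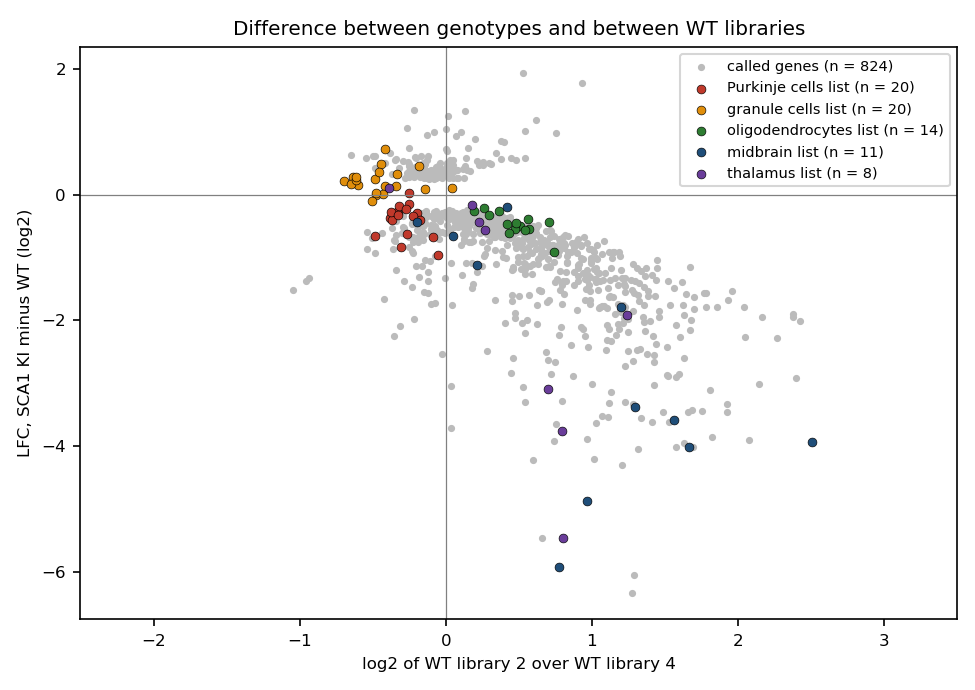
Each point is a gene, with the log2 ratio of WT library 2 to WT library 4 on the horizontal axis and the LFC (SCA1 KI minus WT) on the vertical axis, grey for the 824 DEGs and coloured for all tested members of 5 lists. Midbrain and thalamus genes with large negative LFC lie to the right, Purkinje and granule cell genes to the left. Over all tested members of a list the median ratio was 0.97 for midbrain, 0.48 for thalamus, −0.29 for Purkinje cells and −0.47 for granule cells.

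Purkinje cell genes were lower in SCA1 KI and did not follow the midbrain order. Of 20 listed genes 8 were lower and none higher, 19 had a negative LFC, and the list median was −0.34. The genotypes did not overlap in 15 of the 20, each with SCA1 KI below WT, and WT library 2 was the lowest WT library in 20 of 20. Over all tested genes 4.44% were lower DEGs, every SCA1 KI library lay below every WT library in 17.5%, and WT library 2 was lowest in 41.8%. Pcp4, a small calmodulin-binding protein of Purkinje cells, had 10306, 10266 and 10528 normalized counts in SCA1 KI libraries 1, 3 and 5 and 16176, 17197 and 16436 in WT libraries 2, 4 and 6. The fall was far wider than the spread in either genotype (LFC −0.68 ± 0.06 SE, limma adjusted p = 3.66e-05), though exons of Igsf5 overlap Pcp4 (chromosome 16, 96467606 to 96525793, GRCm38). Rgs8, a brake on G-protein signalling in Purkinje cells, had 38120, 41219.8 and 36177 against 52829.8, 63495 and 61804 (LFC −0.62, limma adjusted p = 0.0163). Gng13, a G-protein gamma subunit, had 2393, 2335 and 2561 against 3771, 4655 and 4640.5 (LFC −0.84, limma adjusted p = 0.0146). Grid2ip, the scaffold that binds the glutamate receptor delta-2 at the parallel fibre synapse, had 2175, 2321 and 2066 against 2773, 3881 and 3779.7 (LFC −0.65, limma adjusted p = 0.0122). In all 4 genes WT library 2 came nearest to the SCA1 KI libraries without reaching them. Exons of Chtf18 overlap Gng13, those of Gm20635 overlap Grid2ip and those of Gm29529 overlap Rgs8, so some of their reads could belong to these genes. Cck, a neuropeptide gene that the list shares with many forebrain neurons, had 598 to 693 against 1165 to 1331 (LFC −0.97, limma adjusted p = 3.05e-04), and its WT cortex mean was 12398.

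The other Purkinje genes moved less. Homer3, a scaffold protein of the postsynapse, had 8991 to 9614 normalized counts in SCA1 KI and 10273 to 13401 in WT (LFC −0.37, limma adjusted p = 0.0346), and Inpp5a, which removes a phosphate from IP3, had 13178 to 14960.5 against 15474 to 19413 (LFC −0.33, adjusted p = 0.0248). Pcp2, a regulator of G-protein alpha subunits found almost only in Purkinje cells and retinal bipolar cells, had 7789.9, 8031 and 7439 against 9414, 10742 and 10249. Its groups did not overlap either, but at 9.88 normalized counts in the WT cortex its error was set there, with an SE of 0.86, and it was no DEG (LFC −0.38, limma adjusted p = 0.884). With the cerebellum fitted on its own the SE was 0.057 and the limma adjusted p 0.0120. That fit called 9 Purkinje genes lower, adding Pcp2, Dner and Lhx5 and losing Homer3 and Inpp5a. Calb1, the calcium buffer calbindin, had 34611 to 38569 against 38861 to 48786 (LFC −0.30) and passed neither fit (limma adjusted p = 0.187, and 0.0966 on its own). Car8, an inhibitor of the IP3 receptor, had 68038 to 77037 against 75721 to 97575 (LFC −0.29), with 1 SCA1 KI library above WT library 2. The IP3 receptor Itpr1 had 131212 to 149914 against 139168 to 173930 (LFC −0.19), which overlapped. In bulk tissue, fewer Purkinje cells and less RNA of these genes per cell cannot be told apart.

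**Figure D4:**
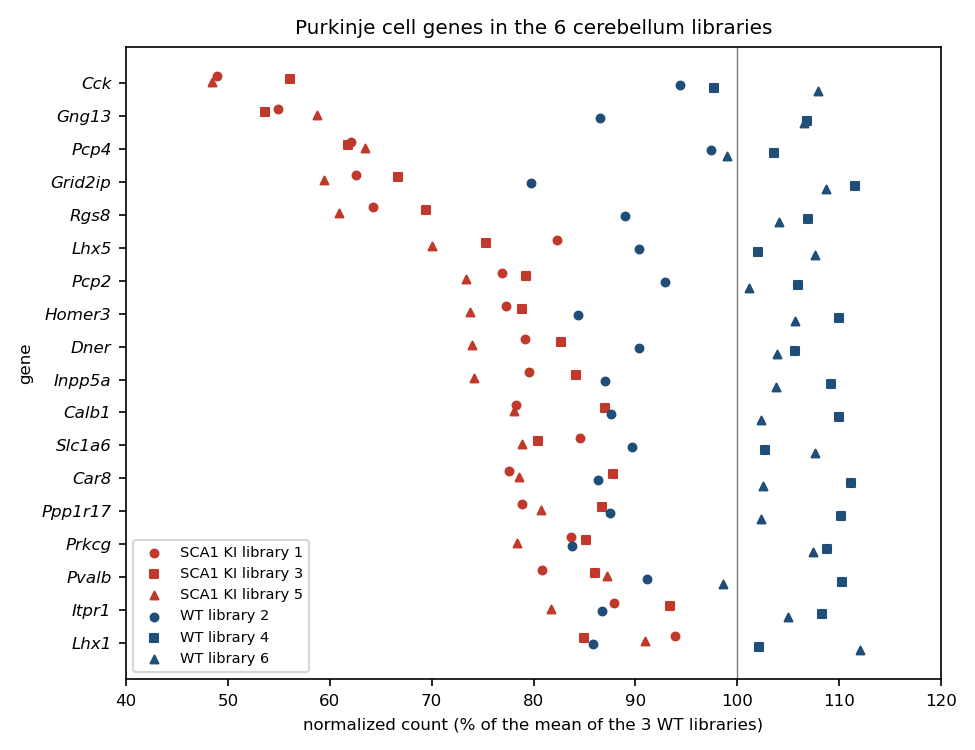
Purkinje cell genes (18 of the 20), ordered by LFC, with the normalized count of each library as a percentage of the mean of the 3 WT libraries (horizontal axis), red for SCA1 KI and blue for WT. In 14 of the 18 every red point lies left of every blue one, and the circle of WT library 2 is the leftmost blue point in all 18.

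The Purkinje count depended on single libraries. It was 2 without SCA1 KI library 1, 2 without WT library 6, 3 without SCA1 KI library 5, 5 without SCA1 KI library 3 and 5 without WT library 4, but 10 without WT library 2. With the midbrain covariate 15 of the 20 were lower and the median was −0.79, a shift that follows by construction from library 2 being lowest in WT.

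Genes of G-protein and calcium store signalling were lower at some steps and not called at others. Of 30 listed genes 7 were lower and none higher, among them Homer3, Plcb3, Inpp5a, Dgkh, Rgs8 and Gng13, with a median LFC of −0.23. Plcb3 (chromosome 19, 6952325 to 6976470, GRCm38), a phospholipase C found in the Purkinje cell bands that hold Aldoc, had 1416, 1447 and 1445 normalized counts in the SCA1 KI and 2433, 2858 and 2799 in the WT libraries. All SCA1 KI values were lower than the lowest WT value, from library 2 (LFC −0.90 ± 0.09 SE, limma adjusted p = 9.18e-05), though exons of Ppp1r14b overlap Plcb3. Plcb4, a related enzyme, had 12047 to 12268 against 11280 to 13666, which overlapped (LFC −0.04). Dgkh, a diacylglycerol kinase, had 784 to 954 against 1244 to 1335 (LFC −0.55, adjusted p = 0.00464). The Gq subunits Gnaq (LFC −0.10) and Gna11 (0.01), the P/Q-type channel Cacna1a (0.07) and the store sensor Stim1 (−0.08) were no DEGs. Atp2a2, the pump that refills the calcium store, had 53201 to 56644 against 61752 to 72123 and missed the threshold (LFC −0.29, limma adjusted p = 0.0655). With the midbrain covariate the list had 13 lower genes and a median of −0.61. WT library 2 was the lowest WT library in 28 of the 30, so this shift too follows by construction. Without WT library 2 it had 12 lower genes, and 2 without SCA1 KI library 1 or without WT library 6, 3 without SCA1 KI library 5, and 4 without SCA1 KI library 3 or without WT library 4.

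Besides Pcp4 and Plcb3, 6 genes had the smallest p among the lower DEGs no more abundant in cortex, of which Tfap2d and Tcf7l2 are described above. Igfbp5 (chromosome 1, 72857932 to 72874884), a secreted binding protein of insulin-like growth factors, had 3707, 4242 and 3738 normalized counts in the SCA1 KI and 9059.5, 10274 and 9789 in the WT libraries. The mean in SCA1 KI was 0.401 times that in WT (LFC −1.32 ± 0.10 SE, limma adjusted p = 1.17e-05). Kctd12 (chromosome 14, 102976581 to 102982637), an auxiliary subunit of GABA-B receptors, had 10449.7, 10568 and 10939 against 16709, 18586 and 17676 (LFC −0.73, adjusted p = 1.54e-04). Aldoc (chromosome 11, 78322968 to 78327781), the aldolase known as zebrin II that marks alternating bands of Purkinje cells and also astrocytes, had 41794, 40612 and 40833 against 64290.4, 62201 and 65716 (LFC −0.64, adjusted p = 3.23e-04). Alad (chromosome 4, 62509169 to 62519918), an enzyme of haem synthesis, had 912, 886 and 930.4 against 1285, 1504 and 1576 (LFC −0.67, adjusted p = 2.92e-04). In Igfbp5, Kctd12 and Alad, WT library 2 was the lowest WT library. The genotypes did not overlap in any of the 4, which the rule for naming genes required. All 4 stayed lower with the midbrain covariate, with an LFC of −1.59, −0.94, −0.59 and −1.03 for Igfbp5, Kctd12, Aldoc and Alad. For Igfbp5, Kctd12 and Alad the shift follows by construction from library 2 being lowest in WT.

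Of the 74 lower DEGs that were no more abundant in cortex and had WT library 2 as the lowest WT library, 66 were also called lower with the cerebellum fitted on its own and 49 with the midbrain covariate. The covariate was highest in WT library 2, so by construction it tends to lower the LFC of genes picked this way. The 49 are therefore no independent support. Several genes among them were singled out after their values had been seen. Mdfi, an inhibitor of MyoD-family factors, had 165, 162 and 164 normalized counts in the SCA1 KI and 451, 501 and 499 in the WT libraries, against 11.5 in the WT cortex (LFC −1.56, limma adjusted p = 0.00442). Car9, a carbonic anhydrase, had 49.7, 37.1 and 50.3 against 182, 232 and 254 (LFC −2.26), and Il20rb, a cytokine receptor subunit, had 442, 488 and 445 against 875, 1108 and 1203 (LFC −1.20). Plk5, a brain polo-like kinase, had 752, 699 and 910 against 1865, 2185 and 2514 (LFC −1.47, adjusted p = 4.41e-04), with a WT cortex mean of 985. The genotypes did not overlap in any of the 4, as in nearly all lower DEGs. That WT library 2 came nearest to SCA1 KI in them follows from how the 74 were picked.

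No fall was called among granule cell genes. None of the 20 listed genes was a DEG in either direction, and their median LFC was 0.19. Gabra6, the GABA-A subunit particular to granule cells, had 30845, 32164 and 32033 normalized counts in SCA1 KI and 20711, 32079.6 and 26698 in WT libraries 2, 4 and 6. WT library 2 was the low one, as it was among the WT libraries in 19 of the 20 genes, and the list summed to 251936 there against 345522 to 364993 in the other 5 libraries. Calb2, the calcium buffer calretinin, had 20744 to 22040.1 in SCA1 KI and 10617 to 14150 in WT. It had an LFC of 0.73 and was no DEG in the main fit but was called with the cerebellum fitted on its own (limma adjusted p = 0.462, and 0.0110 on its own), as was Pax6 (LFC 0.49, 0.138 and 0.0395). The list held 2 higher genes in that fit, 3 with TMM scaling, 2 with DESeq2 and 1 after correction for length and GC content. No gene of it was called higher under the other alternatives. The midbrain covariate turned the median of the list to −0.56, with 5 genes lower.

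Among the other cells, oligodendrocyte genes were lower by moderate amounts. All 14 had a negative LFC (median −0.46) and 3 were DEGs. Mal had 4898 to 5307 normalized counts in SCA1 KI and 6539 to 9063 in WT (LFC −0.55), Cldn11, a claudin of myelin, had 3397 to 3877 against 4964 to 6702 (−0.61), and Opalin had 259 to 380.5 against 462 to 772 (−0.91). The WT order 2, 6, 4 held in 14 of 14, and with the midbrain covariate the list median was 0.23 with no gene called, so the direction turned. None of the 3 calls was made without WT library 2, SCA1 KI library 1 or SCA1 KI library 3. Of 19 genes of Bergmann glia and astrocytes Aldh1l1 (LFC −0.27) and Sparcl1 (−0.32) were lower, and Gfap, at 5041 to 5146 against 5511 to 8581, was no DEG (LFC −0.37). Of 15 microglial genes P2ry12 was lower (LFC −0.46, limma adjusted p = 0.0267), and of 11 genes of molecular layer interneurons Nxph1 (LFC −0.53). Such single calls are not read as a change of the cell type, since 4.44% of all tested genes were lower. Without any 1 of the SCA1 KI libraries neither glial list had a call, nor did microglia without WT library 2 or astrocytes without WT library 6, and Nxph1 was not called without SCA1 KI library 1 or 3. None of Aldh1l1, Sparcl1, P2ry12 and Nxph1 was called with the midbrain covariate, and the median turned from −0.20 to 0.51 for microglia and from −0.17 to 0.03 for molecular layer interneurons. No gene called was found among those of Golgi cells (4 tested), unipolar brush cells (5), oligodendrocyte precursors (8), endothelium (10), and mural cells and meninges (10). Choroid plexus genes summed to 1471, 27018 and 79797 in SCA1 KI libraries 1, 3 and 5 and to 23627, 76202 and 20855 in WT libraries 2, 4 and 6, differing more within than between genotypes, and none of 10 was a DEG.

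**Figure D5:**
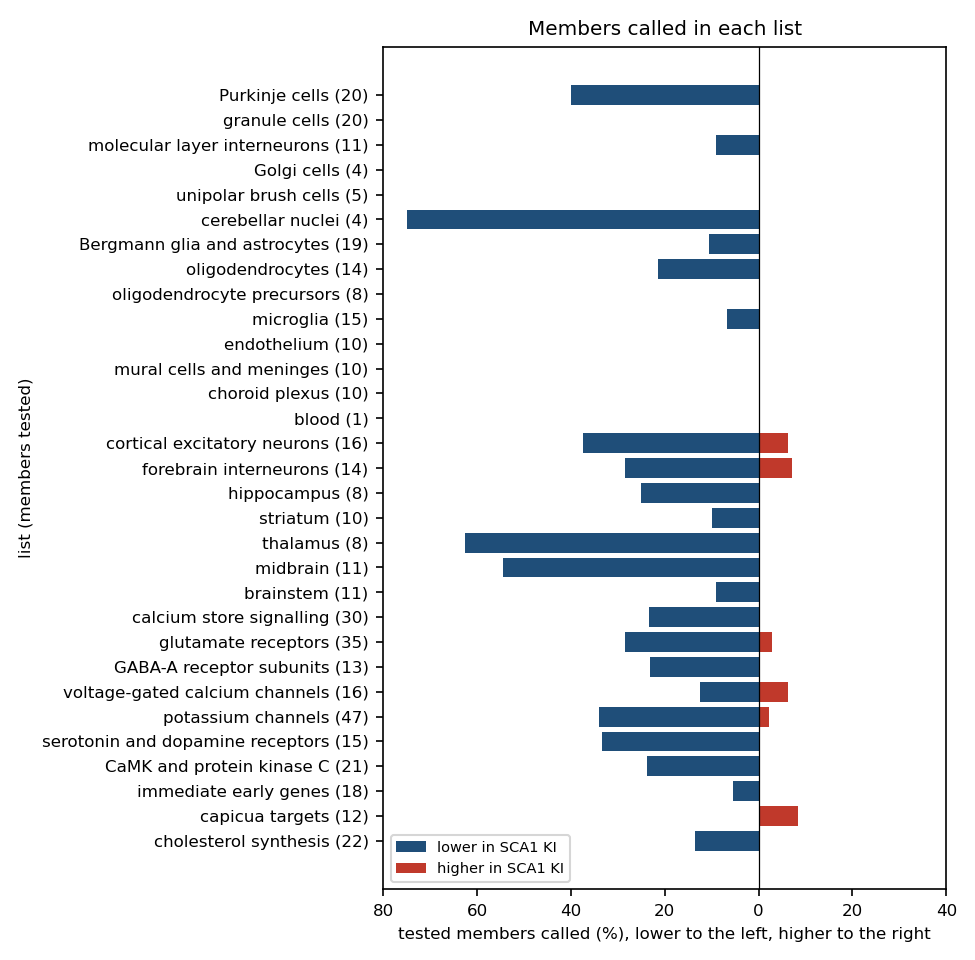
Share of tested members called lower (blue, to the left) and higher (red, to the right) in the SCA1 KI cerebellum for each list, with the number tested in brackets. The longest bars are those of the deep nuclei (3 of 4), thalamus (5 of 8), midbrain (6 of 11) and Purkinje cells (8 of 20), and the granule cell row is empty. Over all tested genes 4.44% were lower and 0.917% higher.

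Lists of neuronal signalling genes held lower DEGs with either order of the WT libraries, beside 4.44% lower and 0.917% higher over all tested genes. Of 47 potassium channel genes 16 were lower and 1 higher, with a median LFC of −0.29, and with the midbrain covariate 4 were lower and 3 higher. Kcnc2, a fast Kv3 channel of many interneurons, had 292, 290.4 and 379 normalized counts in SCA1 KI and 2191, 922 and 1509.6 in WT libraries 2, 4 and 6 (LFC −2.19, limma adjusted p = 1.23e-04), in the midbrain order. Kcnip1, a Kv4 partner, had 1431 to 1621 against 2180.5 to 2316 (LFC −0.59). Kcnb2, a Kv2 channel, was the higher one, at 429.8 to 496 against 222 to 327 (LFC 0.84, adjusted p = 0.00381). Of 35 glutamate receptor genes 10 were lower and Grik2, a kainate receptor, was higher (LFC 0.38), a call that, among the fits that left out 1 library, was made only without WT library 4. Grm5, the receptor mGluR5, had 567 to 617 against 1373 to 2719.8 (LFC −1.68), and Cnih3, an AMPA receptor partner, 135 to 159.7 against 399 to 615 (LFC −1.75), while Gria3, an AMPA receptor subunit, had 5000.3 to 5417 against 6532 to 6712 (LFC −0.36, adjusted p = 0.00467). The first 2 followed the midbrain order and Gria3 did not. The midbrain covariate left 2 of the 35 lower and none higher.

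Serotonin and dopamine receptor genes were lower in 5 of 15 (Htr1a, Htr2a, Htr4, Htr5b and Htr7), with a median LFC of −1.02. Htr1a, the 5-HT1A receptor, had 15.2, 12.4 and 22.3 normalized counts in the SCA1 KI and 352, 111 and 170.1 in the WT libraries (LFC −3.47, limma adjusted p = 6.88e-05). Without SCA1 KI library 1 or without SCA1 KI library 3 the list had 2 such genes, and 3 without WT library 2 or at a minimum mean of 100 normalized counts. It had none with the midbrain covariate, where its median turned to 0.08. Of 13 GABA-A subunits 3 were lower, Gabra3 (LFC −0.98), Gabra5 (−1.90) and Gabrg3 (−1.26), each highest in WT library 2, and 1 of the 3 was called without SCA1 KI library 1 and 1 without SCA1 KI library 3. Of 16 calcium channel genes Cacna1h (−1.35) and Cacnb2 (−0.50) were lower and Cacna1d, an L-type channel, was higher (0.33), the last called with all 6 libraries but in none of the fits that left out 1. Of 21 CaMK and protein kinase C genes 5 were lower, among them the kinase subunit Camk2a at 2871 to 3232 against 5315 to 6982 (limma adjusted p = 6.14e-05). Under the midbrain covariate the lower genes numbered 1 among the GABA-A subunits, 0 among the calcium channels and 3 among the kinases.

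For the counts that follow, 4.44% of all tested genes were lower and 0.917% higher. Immediate early genes had a median LFC of −0.04 over 18, which was 0.08 after subtraction of cortical RNA and −0.92 with the midbrain covariate. Egr3, a transcription factor induced by activity, was the 1 that fell, with 17.7, 15.8 and 18.4 normalized counts against 109, 89.2 and 107 (LFC −2.49, limma adjusted p = 2.60e-05), a call that was made under neither of these alternatives. Of 12 genes known as capicua targets none was lower and Ccnd1, the cyclin D1 gene, was higher, at 2306 to 2581 against 1515 to 1794 (LFC 0.54, adjusted p = 0.0335), a call that was lost whichever library was left out but also made with the cerebellum fitted on its own (limma adjusted p = 0.00848). The list median was 0.23, and −0.36 with the midbrain covariate, so its direction turned as that of the granule cells did. Of 22 cholesterol synthesis genes 3 were lower, among them Cyp51 (LFC −0.28) and Msmo1 (−0.41). Without any 1 of the 3 SCA1 KI libraries, or without WT library 2, none of these 3 was called, nor was any with the midbrain covariate, where the list median turned from −0.10 to 0.13.

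The higher DEGs were fewer and smaller. Mndal (chromosome 1, 173849126 to 173942491, GRCm38), an interferon-inducible gene of the Ifi200 family, had 199.7, 198 and 186 normalized counts in the SCA1 KI and 60.3, 41.5 and 50.1 in the WT libraries (LFC 1.94 ± 0.24 SE, limma adjusted p = 4.41e-04). Its reads could be shared with Ifi203 and Gm38050, whose exons overlap it. Marcks (chromosome 10, 37133375 to 37138920), a protein kinase C substrate at the membrane, had 13418, 12127 and 13440.4 against 7601, 7584 and 8300 (LFC 0.73, adjusted p = 0.00193). In both genes all SCA1 KI libraries lay above all WT libraries, as the rule for naming genes required. Polr2a (chromosome 11, 69733997 to 69758637), the large subunit of RNA polymerase II, had 5932, 5800.5 and 5803 against 4120.3, 4270.3 and 4373 (LFC 0.46, adjusted p = 0.00145). Slc44a5, a choline transporter-like protein, had 421, 376 and 369.8 against 157, 155 and 179 (LFC 1.24), Cemip, which degrades hyaluronan, had 2157 to 2446 against 1218 to 1590.4 (LFC 0.67), and Adamts18, a matrix protease, had 1105 to 1389 against 572 to 798 (LFC 0.95). The Rac activator Tiam2 (LFC 0.58), Igsf10 (0.86), the ADP-ribosyltransferase-family gene Parp12 (0.55) and the orphan receptor Gpr85 (0.38) were also among the higher DEGs with the smallest p. In none of those named did the genotypes overlap, which was a condition for being named. Exons of other genes overlap Tiam2, Igsf10 and Slc44a5. With the midbrain covariate Mndal and Igsf10 stayed higher (LFC 2.66 and 1.37) and the other 8 named were not called, with an LFC of 0.10 to 1.21. In Mndal and Igsf10 the highest WT value was that of library 2, so their rise in LFC follows by construction.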

How the data were processed

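Poly-adenylated RNA of whole cerebella was sequenced as paired ends of 75 bases, and per the labels the submitters' processing notes name STAR, featureCounts, DESeq2 and mm10. The deposited signal is the number of reads on a gene divided by a DESeq2 size factor of the library. Every library's values (100%) came out as whole reads, so reads were recovered for edgeR and DESeq2. The tolerance was 0.01 of a read, and it widened in proportion to the reads for abundant genes, where the check is weaker. The table of 15759 entries was used for the 15369 with a mean of at least 10 over 12 libraries. Whether counting used strand is not given in the sources used here, so overlapping genes share reads. Coordinates and overlaps are from GENCODE vM21 (GRCm38, the build mm10), which gave 1 position for 14978 symbols.

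log2(normalized count + 1) was fitted with limma 3.58.1 in R 4.3.3, with a trend on the mean, 4 group means and 12 libraries, following the adjusted p of 0.05 and LFC limit of 0.25 in the methods of the study. Bounds on a fold use a floor of 3 reads per library. Depth limits genes with few reads, and counts carry biological spread beyond counting error. The members and the 31 lists (450 genes) were chosen with earlier results of these data known. Genes named are Atxn1, among DEGs whose genotypes do not overlap the 8 higher and 8 lower ones of smallest p, the same 8 among genes no more abundant in cortex (mean of 6 cortex libraries at or below that of 6 cerebellum libraries), and list members. Some of these genes are not reported here. A gene singled out for its values is marked as such. Alternatives were pseudocounts, filters, the cerebellum fitted alone, centring, TMM, edgeR 4.0.16, DESeq2 1.42.0, correction for the length and GC content of transcripts (known for 95.2% of entries), subtraction of cortical RNA, other limits and leaving out each library. The midbrain covariate was added after the data were seen. The fits were tested on simulated counts.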

Additional observations from a re-analysis of the deposited data

Results flagged for a closer look

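In 18 of the 26 genes named by the rule and reported here, the LFC of the cerebellum differed from the LFC between the same genotypes in cortex (interaction of region and genotype, limma adjusted p under 0.05). Apart from Atxn1, these genes were named for a small p in the same cerebellar contrast, which favours a difference between regions. The 18 therefore do not show how common such differences are among all genes. The differences below are the cerebellar LFC minus the cortical LFC. For lower DEGs more abundant in forebrain, the difference was −3.52 for Nrgn (cerebellum −4.22, cortex −0.70), −3.29 for Crhbp, −2.19 for Ddn, −2.79 for Gda, −4.48 for Vip, −1.37 for Rasal1 and −3.19 for Zfp831. For the midbrain and thalamus markers it was −6.56 for Tfap2d (cerebellum −5.93, cortex 0.63) and −3.06 for Tcf7l2. Among lower DEGs no more abundant in cortex it was −0.59 for Igfbp5 (cerebellum −1.32, cortex −0.72), −0.72 for Plcb3, −0.84 for Kctd12 and −0.40 for Alad. Among higher DEGs it was 1.82 for Mndal, 0.67 for Tiam2, 0.94 for Slc44a5, 1.16 for Cemip and 0.79 for Adamts18. The adjusted p of these differences ran from 3.65e-05 for Nrgn to 0.0440 for Alad. A difference between regions is set by the cortex libraries as much as by the cerebellum libraries, and the part of tissue from outside the cerebellum in it was not tested. Since the cerebellar data came from an earlier dataset, region and dataset cannot be told apart in it.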

How the results depend on the processing

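No paired analysis was possible because the columns carry library numbers of their own and no replicate numbers of the labels. Of 466 values of the 26 genes named by the rule on p, Atxn1 included, under the alternatives, 450 kept their direction and their side of the threshold, and none reversed. The other 16 no longer passed. Of these, 15 were with the midbrain covariate and kept the direction, and 1 was Ddn after subtraction of cortical RNA, with an LFC of 0. Apart from Atxn1 the genes were picked for a small p, which favours such a tally. Leaving out each library in turn changed no call of these 26 genes, while calls of list members were lost, as given beside them.

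Higher DEGs numbered 220 with the cerebellum fitted alone, 243 with TMM, 231 with DESeq2, 339 corrected for transcript length and GC content, 79 with the midbrain covariate, 9 at an LFC limit of 1, and 43 to 122 with 1 library left out. Lower DEGs numbered 214 with the covariate, 303 at a limit of 1, and 356 to 806 with 1 library left out. Among genes no more abundant in cortex, the higher ones numbered 154, 168, 152, 200, 24 and 5 under the same 6 settings, 4 with a stricter ratio of cortex to cerebellum (0.2 or less), and 22 to 80 with 1 library left out. The lower ones numbered 230 alone, 229 with TMM, 42 at a limit of 1, 28 at that ratio, and 57 to 128 with 1 library left out, the fewest without SCA1 KI library 1 in each direction. The estimated cortical RNA was 0.390% and 0.499% of SCA1 KI libraries 1 and 3 and 1.19% of WT library 2 from the interneuron list, and 0.476% of SCA1 KI library 5 with WT cortex as the reference for all. The causes of these shifts were not tested. With 3 libraries a group, the fits that left out 1 kept 2 against 3, and genes with few reads remain limited by depth.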
